A study of Mus musculus with 121 samples.

Results

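The 8 genes described here encode the neurotrophins BDNF (Bdnf) and NT-3 (Ntf3), their receptor tyrosine kinases TrkB (Ntrk2) and TrkC (Ntrk3), the shared receptor p75NTR (Ngfr), the sorting receptor sortilin (Sort1), and the endoplasmic reticulum (ER) proteins CDNF (Cdnf) and MANF (Manf). They were chosen by name, as the genes of the deposited count table with these symbols, and all 8 were found among its 24412 genes. Neurotrophins are made as precursors that proteases process, and the mature dimers bind Trk kinases, BDNF chiefly TrkB and NT-3 chiefly TrkC, while p75NTR binds every neurotrophin and joins sortilin in a receptor for the unprocessed forms. Striatal neurons are known to obtain much of their BDNF from the axons of cortical and midbrain neurons, which hold the mRNA elsewhere. CDNF and MANF resemble each other but not the neurotrophins, reside in the ER, where MANF is induced when unfolded protein builds up, and have both, like GDNF, been studied for the survival of midbrain dopamine neurons.

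RNA was sequenced from prefrontal cortex (PFC), striatum (STR) and substantia nigra (SN) of 43 adult male mice, each library from 1 mouse and 1 region, with 56 libraries from Nestin-Cre and 65 from AAV-Cre mice. The study asks what more GDNF, made from its own gene, does to the dopamine system, and the same libraries show the 8 genes under it. All mice had a 129Ola/ICR/C57bl6 mixed background and carried, at the Gdnf locus, wt/wt (WT, littermates), wt/cKU (HET) or cKU/cKU (HOM), where cKU is an allele that Cre switches to higher expression. In the 21 mice of the line GDNF cKU x Nestin-Cre, aged 2 months, Cre acts in the central nervous system from mid-gestation on. In the 22 mice labelled GDNF cKU +AAV-Cre, aged 5 to 7 months, an AAV-Cre vector was injected into the striatum on both sides at 3 to 5 months of age, in WT as in HET and HOM mice. Age, Cre source and injection differ together between the models and cannot be told apart.

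Nestin-Cre mice gave 8 WT, 6 HET and 4 HOM libraries of PFC, 6, 7 and 6 of STR, and 6, 7 and 6 of SN. AAV-Cre mice gave 7 WT, 7 HET and 8 HOM libraries of PFC, 7 of each genotype of STR, and 7, 7 and 8 of SN. Total counts per library ran from 9869584 to 26750905. Levels are in cpm (counts scaled to library size by 1 TMM scale for all libraries), given as mean ± SD over the libraries of a group, and differences are log2 fold changes with their standard error (SE). A gene is called when its adjusted p (edgeR quasi-likelihood F test, Benjamini-Hochberg over all genes of the fit) is under 0.1. The PFC library of M4575 carries a WT label and its other libraries a HOM label, and each was used as labelled. In bulk RNA, fewer cells of a type and less RNA per cell cannot be told apart, which holds for every value given here.

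Gdnf itself (Entrez 14573, chr15:7810048-7837580, plus strand of mm10) was checked first against the labels. In STR of Nestin-Cre mice it averaged 5.98 ± 1.27 cpm in WT, 6.25 ± 1.83 in HET and 7.26 ± 1.47 in HOM, and in STR of AAV-Cre mice 6.65 ± 0.731, 7.63 ± 1.06 and 8.76 ± 0.888 cpm. The order of the STR means follows the number of cKU alleles in both models, with overlap of all 3 groups in Nestin-Cre mice and none between WT and HOM in AAV-Cre mice. In PFC the means of WT, HET and HOM were 0.4933 ± 0.263, 0.429 ± 0.288 and 0.255 ± 0.263 cpm in Nestin-Cre and 0.849 ± 0.342, 1.07 ± 0.563 and 0.892 ± 0.457 cpm in AAV-Cre mice. In SN they were 0.404 ± 0.0872, 0.614 ± 0.443 and 0.639 ± 0.178 cpm and 0.318 ± 0.319, 0.457 ± 0.206 and 0.471 ± 0.221 cpm. The highest SN values were 1.57 cpm in Nestin-Cre HET mouse M4566 and 1.01 cpm in AAV-Cre WT mouse M3587. These are the SN libraries with the most striatal markers, given below, and they raise the means of their groups. Gdnf RNA outside STR thus lay near the limit of detection, with as few as 1 count in a library.

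Tissue labels were checked with marker lists for cell types. In WT mice the 9 striatal projection neuron markers summed to 11917 cpm in Nestin-Cre and 9228 cpm in AAV-Cre STR, and the 8 dopamine neuron markers to 3721 and 3511 cpm in SN. The 8 cortical excitatory neuron markers summed to 2199 and 1930.3 cpm in PFC, of which Slc17a7 made up 1719 and 1518 cpm. PFC libraries also held striatal markers, 735 ± 192 cpm in Nestin-Cre and 1272 ± 475 cpm in AAV-Cre WT mice. Some libraries of STR and SN stand apart from their group. Cortical markers summed to 343 and 339 cpm in the Nestin-Cre WT STR libraries of M4326 and M4609 and to 557 cpm in the HOM STR library of M4569, against at most 169 cpm in the other Nestin-Cre STR libraries. AAV-Cre HOM mouse M3687 had 190 cpm of them in STR, against at most 113 cpm in the other AAV-Cre STR libraries. In SN, striatal markers summed to 1758 cpm in HET mouse M4566 of the Nestin-Cre line and to 993 cpm in AAV-Cre WT mouse M3587, against at most 426 cpm in the other SN libraries. SN libraries also differed in cortical markers, which summed to 258 and 208 cpm in the Nestin-Cre WT mice M4329 and M4394 against at most 57.9 cpm in the other 4, and these 2 also had the most mural and meningeal markers (1151 and 845 cpm against at most 408). In AAV-Cre SN cortical markers summed to 284 cpm in WT mouse M3587 and to 358 and 266 cpm in the HOM mice M3611 and M3570. Bdnf differences between regions and between genotypes in STR are given with and without the STR libraries with high cortical markers. No fit left out M4329 and M4394, and leaving out the SN library of M3587 changed no call on the 8 genes between regions. The genotype fits in SN left out neither M4566 nor M3587.

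Set per kilobase of exon, the 8 genes span a wide range of levels. In WT PFC of Nestin-Cre mice Sort1 was highest at 111 ± 7.95 cpm per kb, followed by Ntrk2 at 60.4 ± 3.76, Ntrk3 at 19.8 ± 1.97 and Manf at 18.2 ± 2.01 cpm per kb. Bdnf came next at 4.93 ± 1.47 cpm per kb, and Ntf3 at 0.709 ± 0.224, Cdnf at 0.57 ± 0.224 and Ngfr at 0.317 ± 0.0934 cpm per kb were lowest. Ntrk3 and Manf, and likewise Ntf3 and Cdnf, lay within 1 SD of each other. The order of Sort1 and Ntrk2 depends on the summed exon length, 6930 bases for Sort1 and 14037 for Ntrk2. In cpm Ntrk2, at 848, was above Sort1, at 768, in the same libraries. The smallest count in any library was 5815 for Ntrk2, 2706 for Sort1, 580 for Ntrk3 and 297 for Manf, but 8 for Cdnf, 4 for Bdnf and for Ngfr and 0 for Ntf3, so counting error is largest in the last 4.

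**Figure D1:**
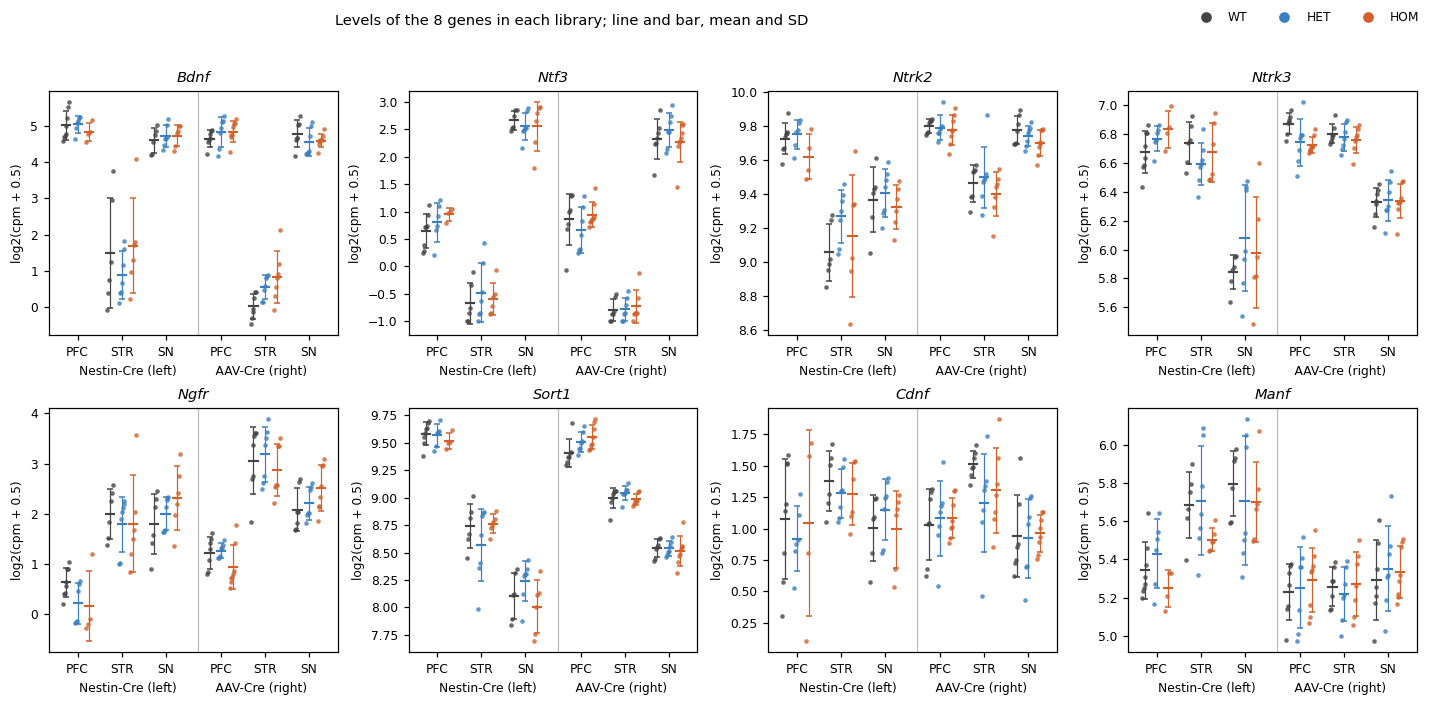
Each panel shows 1 gene, with points for libraries as log2(cpm + 0.5), grouped by region and model and coloured by genotype, and lines and bars for mean and SD. Bdnf and Ntf3 sit lowest in STR of both models, and the genotypes of a region overlap in every panel.

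Regions were compared in WT mice, which have no cKU allele, to show where each gene is expressed. In Nestin-Cre mice 6 of the 8 genes were called between STR and PFC, against 68.1% of the 14926 genes tested, 2 of them higher in STR (34.2% of all genes) and 4 lower (34%), and 3 with a change of at least 2-fold (15.7%). Between SN and PFC 6 were called (78.8% of all genes), 3 higher (37.6%), 3 lower (41.2%) and 3 at least 2-fold (24.2%). Between SN and STR 5 were called (76.2%), 3 higher (37.8%), 2 lower (38.3%) and 2 at least 2-fold (25.3%). Most genes tested differ between these regions, so a call between regions is common to genes of any kind.

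The AAV-Cre WT mice gave 6 called genes between STR and PFC (65.6% of 15043 genes), 2 higher (33.8%), 4 lower (31.8%) and 3 at least 2-fold (12.4%). Between SN and PFC the count was 4 (74.1%), with 2 higher (37.7%), 2 lower (36.4%) and 2 at least 2-fold (16.7%). Between SN and STR it was 7 (75.6%), with 3 higher (39.7%), 4 lower (35.9%) and 3 at least 2-fold (18.2%). Ntf3 reached 1 cpm in no STR library and passed the filter on low counts through PFC and SN alone, so its differences from STR had to appear. The same holds for Bdnf in AAV-Cre WT mice, of which no STR library reached 1 cpm.

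Bdnf (Entrez 12064, chr2:109674700-109727043, plus strand) encodes the ligand of TrkB and was lower in STR than in PFC and SN of both models. Its level in WT PFC ran from 23.5 to 49.6 cpm (median 29.1) in Nestin-Cre and from 18.2 to 28.8 cpm (median 25.0) in AAV-Cre mice. WT STR held from 0.448 to 13 cpm (median 1.52) and from 0.230 to 0.848 cpm (median 0.474). WT SN held from 18 to 32.1 cpm (median 24.7) and from 17.4 to 38.4 cpm (median 25.1). STR lay below PFC and SN in both models with no overlap, SN and PFC overlapped, and the highest Nestin-Cre WT STR values, 13 and 7.31 cpm, were those of M4326 and M4609, the WT mice with high cortical markers in STR. From PFC to STR the log2 fold change was -3.01 (SE 0.48, adjusted p 1.14e-05) in Nestin-Cre mice and -5.51 (SE 0.22, adjusted p 2.85e-15) in AAV-Cre mice, the latter on STR libraries that were all below the filter's 1 cpm. Without the STR libraries of M4326 and M4609, a leaving-out chosen after the values were seen, the Nestin-Cre value was -4.87 (adjusted p 1.71e-10, range over the alternatives 1.71e-10 to 3.01e-05).

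SN exceeded STR in Bdnf by a log2 fold change of 2.56 (SE 0.49, adjusted p 7.32e-05) in Nestin-Cre mice and 5.70 (SE 0.22, adjusted p 9.78e-16) in AAV-Cre mice, where STR was below the filter in every library, and the first became 4.48 without M4326 and M4609 in STR. SN and PFC were not told apart, with log2 fold changes of -0.45 (95% interval -1.25 to 0.35) and 0.19 (-0.093 to 0.48), and with mouse number as a replicate block the first was -0.0058 (adjusted p 0.990). The 3 regions share 1 spread per gene in a fit, so the scatter of Bdnf in STR enters these intervals. The highest Nestin-Cre WT SN values of Bdnf, 32.1 and 28.5 cpm, were those of M4394 and M4329, the libraries with the most cortical markers in that group. In AAV-Cre WT SN the highest values, 38.4 and 32.8 cpm, were those of M3677 and M3585, with 82.2 and 87.0 cpm of cortical markers. M3587, with the most cortical markers of that group (284 cpm), had 31.7 cpm of Bdnf. M3578 and M3588 had 24.0 and 25.0 cpm of Bdnf beside 179 and 173 cpm of these markers. The relation of Bdnf to cortical markers in SN was not tested. With the STR libraries of M4326 and M4609 left out, the Nestin-Cre difference between SN and PFC, -0.39, was called (adjusted p 0.0817, range over the alternatives 0.0817 to 0.990). That fit kept every SN and PFC library. Mean WT levels were thus 33.1 ± 9.90, 4.10 ± 5.03 and 24.4 ± 5.72 cpm in PFC, STR and SN of Nestin-Cre mice and 24.8 ± 3.68, 0.547 ± 0.247 and 27.8 ± 6.97 cpm in AAV-Cre mice. An antisense gene, Gm45346, shares 896 exon bases with Bdnf, and the sources do not state whether reads were counted by strand.

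Ntf3 (Entrez 18205, chr6:126101412-126166744, minus strand) encodes NT-3, the ligand of TrkC. Its level was highest in SN, 5.90 ± 0.772 cpm in Nestin-Cre and 4.66 ± 1.24 in AAV-Cre WT mice, lower in PFC at 1.10 ± 0.347 and 1.39 ± 0.527, and lowest in STR at 0.145 ± 0.178 and 0.0790 ± 0.0829 cpm. The libraries of the 3 regions did not overlap in either model. SN exceeded PFC by a log2 fold change of 2.39 (SE 0.29, adjusted p 2.09e-07) in Nestin-Cre mice and 1.79 (SE 0.27, adjusted p 3.77e-06) in AAV-Cre mice. STR was below PFC by -2.88 and -4.00 on the log2 scale, on counts of 0 to 8 per WT STR library.

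Ntrk2 (Entrez 18212, chr13:58806569-59133970, plus strand) encodes TrkB, the receptor of BDNF. WT levels ran from 536 ± 63.3 cpm in Nestin-Cre STR to 892 ± 24.7 cpm in AAV-Cre PFC. STR was lowest in both models, below PFC by log2 fold changes of -0.67 (SE 0.082, adjusted p 3.76e-07) and -0.34 (SE 0.047, adjusted p 1.68e-06), and the libraries of these regions did not overlap. SN lay between them in Nestin-Cre mice at 665 ± 84.6 cpm, lower than PFC at 848 ± 52.8 cpm (-0.36, adjusted p 0.000409) and higher than STR (0.31, adjusted p 0.00313). In AAV-Cre mice SN, at 879 ± 51.0 cpm, exceeded STR at 707 ± 51.4 cpm (0.35, adjusted p 6.46e-07). It was not told apart from PFC, with a log2 fold change of 0.011 (95% interval -0.080 to 0.10) whose sign changed to -0.013 with no filter on low counts and to -0.00040 with DESeq2's size factors.

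Ntrk3 (Entrez 18213, chr7:78192114-78577838, minus strand) encodes TrkC, the receptor of NT-3. WT levels in PFC, STR and SN were 102 ± 10.2, 107 ± 10.9 and 57.1 ± 4.61 cpm in Nestin-Cre mice and 117 ± 5.73, 111 ± 5.35 and 80.0 ± 5.54 cpm in AAV-Cre mice. PFC and STR overlapped and were not told apart (log2 fold changes 0.049 and -0.070), whereas every SN library lay below every PFC and STR library of its model. From PFC to SN the log2 fold change was -0.85 (SE 0.078, adjusted p 2.24e-09) in Nestin-Cre mice and -0.51 (SE 0.048, adjusted p 2.11e-09) in AAV-Cre mice, and from STR to SN -0.90 and -0.44. Ntrk3 mRNA, counted per gene without separating transcript forms, was thus lowest in the region where the mRNA of the TrkC ligand was highest.

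Ngfr (Entrez 18053, chr11:95568821-95587698, minus strand) encodes p75NTR, which lacks a kinase domain. In WT PFC it ran from 0.651 to 1.55 cpm (median 1.02) in Nestin-Cre and from 1.23 to 2.57 cpm (median 1.95) in AAV-Cre mice. WT STR libraries held from 2.10 to 5.44 cpm (median 3.69) and from 3.05 to 11.7 cpm (median 9.90). WT SN libraries held from 1.37 to 5.00 cpm (median 3.18) and from 2.69 to 5.97 cpm (median 3.59). PFC was lowest in both models and did not overlap STR, while STR and SN overlapped, with the lowest AAV-Cre STR library inside the SN range. STR exceeded PFC by log2 fold changes of 1.74 (SE 0.29, adjusted p 1.80e-05) and 2.17 (SE 0.28, adjusted p 5.56e-07), and SN exceeded PFC by 1.55 (adjusted p 4.83e-05) and 1.08 (adjusted p 0.00178). SN was called lower than STR in AAV-Cre mice (-1.09, adjusted p 0.000595) and not in Nestin-Cre mice (-0.19, adjusted p 0.574), and the difference between the models was not tested. Mean levels in PFC, STR and SN were 1.08 ± 0.318, 3.68 ± 1.37 and 3.23 ± 1.42 cpm in Nestin-Cre and 1.88 ± 0.518, 8.52 ± 3.43 and 3.90 ± 1.37 cpm in AAV-Cre WT mice.

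The 19 adaptors and signalling partners of Trk receptors and p75NTR were all tested, with 2 called higher and 10 lower in STR than in PFC of Nestin-Cre mice and 5 higher and 9 lower in AAV-Cre mice. Their median log2 fold change, -0.18 and -0.082, compares with 0.0027 and 0.018 over all genes. Rtn4r, the Nogo receptor to which p75NTR can bind, had 90.6 cpm in PFC and 8.54 cpm in STR of Nestin-Cre mice (log2 fold change -3.41, adjusted p 8.97e-09) and 88.4 and 3.99 cpm in AAV-Cre mice (-4.47, adjusted p 4.40e-14). Lingo1, of the same receptor complex, had 395 and 107 cpm (-1.89, adjusted p 2.06e-09) and 368 and 82.3 cpm (-2.16, adjusted p 2.96e-16). SN too was below PFC, by -3.47 and -3.41 for Rtn4r and -2.80 and -2.11 for Lingo1, and there 7 genes of the list were higher and 10 lower in Nestin-Cre mice and 8 higher and 8 lower in AAV-Cre mice. Between SN and STR 6 were higher and 9 lower in Nestin-Cre mice, led by Gab1 (1.33) and Shc3 (-1.20), and 9 higher and 6 lower in AAV-Cre mice, led by Rtn4r (1.07) and Frs3 (0.91). Ngfr was thus lowest in PFC, the region where Rtn4r and Lingo1 were highest.

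Sort1 (Entrez 20661, chr3:108284064-108361519, plus strand) encodes sortilin, which sorts pro-BDNF within the cell and binds proneurotrophins together with p75NTR. Its order was PFC above STR above SN in both models, at 768 ± 55.1, 430 ± 59.2 and 277 ± 39.6 cpm in Nestin-Cre and 682 ± 65.0, 511 ± 31.7 and 372 ± 20.8 cpm in AAV-Cre WT mice, with no overlap between regions. Every step was called, from PFC to STR at -0.85 (SE 0.092, adjusted p 6.41e-08) and -0.42 (SE 0.057, adjusted p 1.30e-06) and from STR to SN at -0.64 (SE 0.097, adjusted p 4.40e-06) and -0.42 (SE 0.057, adjusted p 7.08e-07). An antisense gene, Gm12523, shares 356 exon bases with Sort1.

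Relatives of sortilin are named where they were among the 2 genes of their list with the largest called difference. They do not stand for the whole list, in which other genes were called higher in some comparisons. Sorcs3 was lower in SN than in PFC by log2 fold changes of -1.57 (adjusted p 5.97e-08) in Nestin-Cre WT mice and -0.96 (adjusted p 2.69e-08) in AAV-Cre WT mice. Between SN and STR, Sorcs2 was lower in SN of Nestin-Cre mice (-1.42, adjusted p 5.98e-10) and Sorcs1 in SN of AAV-Cre mice (-0.86, adjusted p 1.08e-09).

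The list of 5 proteases linked to proneurotrophin processing, directly or through another protease, held Furin, Pcsk1, Pcsk2, Plat and Mmp9. In Nestin-Cre mice 0 were called higher and 4 lower in STR than in PFC (34.2% and 34% of all genes). In AAV-Cre mice 0 were higher and 5 lower (33.8% and 31.8% of all genes). Their medians were -0.76 and -0.39 on the log2 scale. Pcsk1 had 37.9 cpm in PFC and 10.4 cpm in STR (log2 fold change -1.87, adjusted p 1.51e-08) and 26.0 and 8.41 cpm (-1.63, adjusted p 5.22e-10), and Mmp9 differed by -1.26 and -1.11. In SN Pcsk1 had 41.2 and 49.5 cpm, above STR by 1.97 and 2.59, and Mmp9 was above STR by 1.82 and 2.10, with 3 of the list higher and 1 lower in each model. SN against PFC gave 2 higher and 2 lower in Nestin-Cre mice, led by Pcsk2 (-1.81) and Furin (-0.98), and 3 higher and 2 lower in AAV-Cre mice, led by Pcsk2 (-1.13) and Mmp9 (0.99). Mmp9 averaged 0.561 and 0.615 cpm in STR, under the filter's 1 cpm, and was above it in PFC and SN, which favours such differences among genes that pass the filter. Pcsk1, like Bdnf, had its lowest level in STR.

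Cdnf (Entrez 227526, chr2:3513065-3526376, plus strand) encodes CDNF, a secreted and ER-resident protein. Its WT level was 1.71 ± 0.674 cpm in PFC, 2.13 ± 0.427 in STR and 1.53 ± 0.348 in SN of Nestin-Cre mice, where the 3 regions overlapped and no pair was called. In AAV-Cre mice it was 1.58 ± 0.387, 2.36 ± 0.212 and 1.47 ± 0.497 cpm, and STR exceeded PFC by a log2 fold change of 0.59 (SE 0.19, adjusted p 0.00865) with no overlap. SN was lower than STR there by -0.64 (SE 0.18, adjusted p 0.00308), and 1 SN library, at 2.46 cpm, lay inside the STR range. In Nestin-Cre mice the same difference was -0.48 with an adjusted p of 0.110. It passed 0.1 when M4575 was left out (-0.48, adjusted p 0.0995) or, in a leaving-out chosen after the values were seen, without the STR libraries of M4326 and M4609 (-0.61, adjusted p 0.0736, range over the alternatives 0.0736 to 0.142). PFC and SN, the neighbours in its order, were not told apart in either model (-0.19 and -0.051).

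Manf (Entrez 74840, chr9:106887415-106891938, minus strand) encodes MANF, the paralog of CDNF. WT levels in PFC, STR and SN were 40.2 ± 4.43, 51.3 ± 6.00 and 55.4 ± 6.51 cpm in Nestin-Cre mice and 37.2 ± 3.72, 37.8 ± 2.68 and 39.1 ± 5.79 cpm in AAV-Cre mice. PFC was lowest in Nestin-Cre mice, below STR (log2 fold change 0.34, SE 0.084, adjusted p 0.00136) and SN (0.45, SE 0.083, adjusted p 5.21e-05), though with overlap between libraries. STR and SN were not told apart there (0.11, 95% interval -0.065 to 0.29). No pair of regions was called in AAV-Cre mice, where the widest difference, SN against PFC, was 0.10 (95% interval -0.059 to 0.26). Per kilobase, WT PFC of Nestin-Cre mice held 18.2 cpm of Manf and 0.57 cpm of Cdnf. An antisense gene, 4930524O07Rik, shares 125 exon bases with Manf, and Rbm15b shares 14 on the same strand.

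The 26 genes of ER chaperones and the unfolded protein response were spread in both directions. In Nestin-Cre mice 8 were higher and 7 lower in STR than in PFC, 12 higher and 8 lower in SN than in PFC, and 13 higher and 6 lower in SN than in STR, with medians of 0.055, 0.15 and 0.21 on the log2 scale. In AAV-Cre mice, where 25 passed the filter, the counts were 3 and 7, 13 and 7, and 14 and 4, with medians of 0.011, 0.15 and 0.26. Atf6, a sensor of unfolded protein, was below PFC in SN by -1.51 and -0.996 and below STR by -1.17 and -0.78. Nptn, which encodes a cell-surface protein and not an ER protein, was in the list as used and is counted here and below. It was lower in SN than in STR by -1.06 and -0.66. Ern1 was lower in STR than in PFC by -1.16 and -0.35. The other genes with the largest differences were Ddit3 (0.60) in STR and Kdelr3 (1.33) in SN of Nestin-Cre mice and Atf4 (-0.63) in STR and Dnajb9 (0.67) in SN of AAV-Cre mice, each against PFC. Kdelr3 averaged 0.412 cpm in PFC, under the filter's 1 cpm, and 1.06 cpm in SN, which favours such a difference among genes that pass the filter.

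Genes induced by neuronal activity were included because Bdnf is one of them. Of 12 immediate-early genes, 2 were called higher and 4 lower in STR than in PFC of Nestin-Cre mice, led by Fos (-1.70) and Ier2 (-1.48), and 2 higher and 2 lower in AAV-Cre mice, led by Btg2 (-1.28) and Ier2 (-1.12). In SN 0 were higher and 12 lower than in PFC of Nestin-Cre mice, led by Egr2 (-4.68) and Fosb (-3.88), and 0 higher and 11 lower in AAV-Cre mice, led by Egr2 (-4.18) and Egr4 (-3.30). SN against STR gave 1 higher and 9 lower in each model, led by Egr2 (-5.21 and -4.52) and Egr4 (-4.97 and -4.26). In SN Egr2 averaged 0.307 and 0.362 cpm, and Egr4 0.867 cpm in Nestin-Cre mice, all under the filter's 1 cpm. Both were above it in STR, and Egr2 also in PFC, which favours such differences among genes that pass the filter. Of 5 late activity-regulated genes, 4 were higher and 1 lower in STR than in PFC of Nestin-Cre mice, led by Nptx2 (-1.39) and Inhba (0.54), and 2 higher and 1 lower in AAV-Cre mice, led by Nptx2 (-1.50) and Homer1 (0.36). SN was below PFC and STR in 4 of them in Nestin-Cre mice and in 3 in AAV-Cre mice, with 1 higher each time, led by Nptx2 (-4.77 and -4.91 against PFC, -3.38 and -3.40 against STR) and Homer1 (-2.91 and -2.15, -3.37 and -2.52). Bdnf, low in STR and high in SN, did not share this order.

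Genotypes were compared within each region and model, to ask whether the allele changes the 8 genes. HET and HOM mice were set against the same WT mice, so the values of the 2 comparisons are not independent. With edgeR's quasi-likelihood test 0 of the 8 genes were called in any of the 12 comparisons, and 0 were called by DESeq2. A likelihood ratio test in edgeR, an alternative, called Bdnf in STR of each model, as given below. Over all genes DESeq2 called 535 of 14494 for HET in Nestin-Cre STR, 116 and 227 of 14386 for HET and HOM in Nestin-Cre PFC, 184 of 14628 for HOM in AAV-Cre PFC and at most 10 in each of the other 8 comparisons. Among all genes the share called was 0% for HET and 0.25% for HOM in PFC of Nestin-Cre mice, 0% for HET and 0% for HOM in their STR, and 0% for HET and 0% for HOM in their SN. In AAV-Cre mice it was 0% for HET and 0.0137% for HOM in PFC, 0% for HET and 0% for HOM in STR, and 0% for HET and 0% for HOM in SN. The members gave 92 tests, since Ntf3 was below the filter in the 4 STR comparisons, and 7 of them (7.61%) had an unadjusted p under 0.05. Over all genes that share lay between 1.71% (AAV-Cre STR, HET) and 17.3% (Nestin-Cre STR, HET). Those 7 tests concern Bdnf, Ntrk3, Ngfr and Sort1, whose values follow by role.

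**Figure D2:**
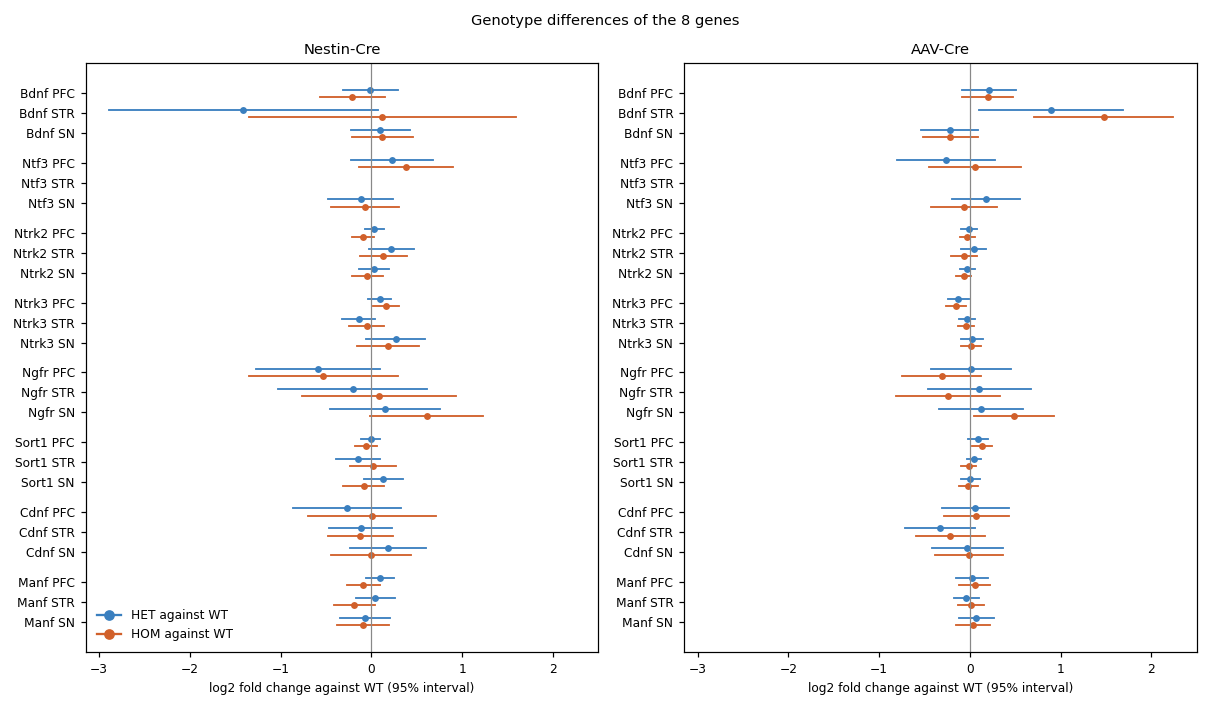
Points are log2 fold changes of HET and HOM against WT for each gene, region and model, and bars are 95% intervals. Ntrk2, Sort1 and Manf lie between -0.19 and 0.22, and Bdnf in STR has the widest intervals, up to an SE of 0.76.

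Bdnf in STR of AAV-Cre mice ran from 0.230 to 0.848 cpm (median 0.474) in WT, from 0.610 to 1.35 cpm (median 1.00) in HET and from 0.460 to 3.91 cpm (median 1.25) in HOM libraries. All 7 HET and 6 of 7 HOM libraries lay above the WT mean, the groups overlapped, and HOM mouse M3687 was highest. No WT library reached the filter's 1 cpm, so Bdnf entered this fit through HET and HOM libraries alone. That favours a positive difference among genes that pass the filter, and the p values below are a description. The log2 fold change was 0.89 (95% interval 0.10 to 1.68, adjusted p 1.00) for HET and 1.48 (SE 0.39, 95% interval 0.71 to 2.25, adjusted p 0.832) for HOM. Their unadjusted edgeR p values were 0.0376 and 0.00102, and without M3687, left out after its value was seen, the HOM value was 1.01 (adjusted p 0.989). A likelihood ratio test on the trended dispersion, an alternative that allows no gene its own spread, called the HOM difference (adjusted p 0.000146, range over the alternatives 0.000146 to 0.995), as 1 of 175 genes of 14655.

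In STR of Nestin-Cre mice Bdnf ran from 0.448 to 13 cpm (median 1.52) in WT, from 0.583 to 3.07 cpm (median 1.10) in HET and from 0.670 to 16.5 cpm (median 2.40) in HOM libraries. M4326 and M4609 in WT and M4569 in HOM were high, and the groups overlapped. The log2 fold change was -1.41 (95% interval -2.89 to 0.069, adjusted p 0.333) for HET and 0.12 (-1.35 to 1.59, adjusted p 0.968) for HOM. Without the 3 high libraries, left out after their values were seen, HET reversed to 0.50 (adjusted p 0.608) and HOM was 0.85 (adjusted p 0.557, range over the alternatives 0.557 to 1.00). The HET value was called, at -1.41, by the likelihood ratio test alone (adjusted p 5.95e-05, range over the alternatives 5.95e-05 to 0.608), as 1 of 1242 genes of 14494. In PFC and SN the Bdnf differences ran from -0.22 to 0.21 with no unadjusted p under 0.05. Mean levels in HET and HOM mice were 32.6 ± 4.83 and 28.3 ± 5.04 cpm in PFC and 26.3 ± 5.75 and 26.5 ± 5.10 cpm in SN of the Nestin-Cre line, and 28.8 ± 7.54 and 28.7 ± 5.49 cpm and 23.7 ± 6.72 and 23.8 ± 3.11 cpm in AAV-Cre mice.

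Cortical neurons express Bdnf, and cortical markers varied between STR libraries, so the values were set side by side after both had been seen. The cortical index, the mean log2(cpm + 0.5) of the 8 cortical markers, and log2(cpm + 0.5) of Bdnf had a Pearson r of 0.914 over the 19 Nestin-Cre STR libraries (permutation p 1e-05, the smallest that 100000 permutations give, adjusted 2e-05). Spearman's rho was 0.877 (permutation p 3.0e-05, adjusted 4e-05), and r was 0.846 without M4569 and M4609, the libraries farthest from the median index, and 0.786 without the 3 highest. In the 21 AAV-Cre STR libraries r was 0.795 (permutation p 1e-05, adjusted 2e-05) and rho 0.744 (permutation p 0.00016, adjusted 0.00016), with r 0.655 without M3687 and M3567. The 4 tests were adjusted together. Both values had been seen before the tests, so these p values are a description. Within WT, HET and HOM groups r was 0.938, 0.612 and 0.989 in Nestin-Cre mice and 0.336, 0.849 and 0.923 in AAV-Cre mice, with 6 or 7 libraries each. In the same order rho was 0.943, 0.321 and 1.0 in Nestin-Cre mice and 0.357, 0.821 and 0.929 in AAV-Cre mice. Bdnf was 16.5 cpm beside 557 cpm of summed cortical markers in M4569, 13 beside 343 in M4326, 7.31 beside 339 in M4609 and 3.91 beside 190 in M3687.

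**Figure D3:**
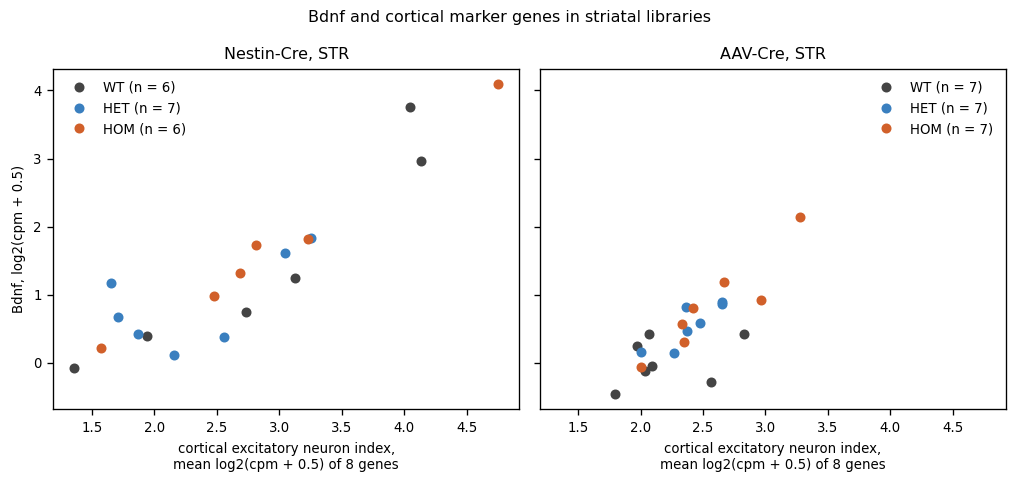
Each point is a STR library, with the index of 8 cortical excitatory neuron markers on the x axis and Bdnf on the y axis, both as log2(cpm + 0.5), coloured by genotype. The libraries with the most Bdnf, 16.5 and 13 cpm in Nestin-Cre mice and 3.91 cpm in AAV-Cre mice, are among those with the highest index.

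The cortical index of AAV-Cre STR was 2.19 ± 0.37 in WT, 2.40 ± 0.23 in HET and 2.57 ± 0.43 in HOM mice. Its difference from WT was 0.20 for HET (exact permutation p 0.226, adjusted 0.535) and 0.38 for HOM (exact permutation p 0.101, adjusted 0.403, over 12 tests of marker indices). Of the 8 markers 7 were tested in edgeR for HOM, 6 had a positive log2 fold change, the median was 0.51, and Neurod6 (2.21) and Slc17a7 (0.88) had an unadjusted p under 0.05. In Nestin-Cre STR the index differed by -0.57 for HET (exact permutation p 0.267) and 0.031 for HOM (exact permutation p 0.957). Whether these markers account for the Bdnf values was not tested.

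Ntf3 gave log2 fold changes from -0.26 to 0.38 over the 8 comparisons in PFC and SN, with adjusted p from 0.709 to 0.964. Its HET and HOM means were 1.29 ± 0.413 and 1.44 ± 0.152 cpm in PFC, 0.266 ± 0.313 and 0.175 ± 0.150 cpm in STR and 5.46 ± 1.00 and 5.59 ± 1.62 cpm in SN of Nestin-Cre mice. In AAV-Cre mice they were 1.14 ± 0.491 and 1.45 ± 0.339 cpm, 0.0884 ± 0.0884 and 0.116 ± 0.144 cpm and 5.24 ± 1.26 and 4.46 ± 1.04 cpm. The order of regions, SN above PFC above STR, was the same in HET and HOM as in WT mice.

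Ntrk2 differences ran from -0.096 to 0.22 in 12 comparisons, with no unadjusted p under 0.05 and 95% intervals inside -0.22 to 0.47. The value of 0.22 is that of HET in Nestin-Cre STR, where the striatal markers summed to 8587 cpm against 11917 cpm in WT, and their part in it was not tested. HET and HOM means were 863 ± 49.3 and 789 ± 72.8 cpm in PFC, 620.1 ± 65.8 and 585 ± 144 cpm in STR and 681 ± 65.5 and 643 ± 57.0 cpm in SN of Nestin-Cre mice. AAV-Cre mice had 887 ± 45.7 and 879 ± 54.0 cpm, 729 ± 97.2 and 678 ± 58.9 cpm and 857 ± 36.3 and 835 ± 43.8 cpm. Ntrk2 mRNA, counted per gene without separating transcript forms, thus kept STR as its lowest region in each genotype.

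Ntrk3 differences ran from -0.15 to 0.27 in 12 comparisons, with 95% interval limits from -0.32 to 0.59. Ntrk3 had 3 of the 7 unadjusted p values under 0.05, all in PFC, and the widest difference was not among them. In Nestin-Cre PFC its 4 HOM libraries held 127, 115, 112 and 102 cpm, against 86.0 to 116 cpm (median 102) in WT. Of the HOM libraries 3 lay above the WT mean, and the groups overlapped. The log2 fold change was 0.16 (95% interval 0.018 to 0.31, adjusted p 0.459). In AAV-Cre PFC WT libraries ran from 107 to 124 cpm (median 118), HET from 90.7 to 129 cpm (median 109) and HOM from 101 to 113 cpm (median 104). All 8 HOM and 6 of 7 HET libraries lay below the WT mean, with overlap. The log2 fold changes were -0.15 (95% interval -0.26 to -0.044, adjusted p 0.249) for HOM and -0.13 (-0.24 to -0.013, adjusted p 0.381) for HET, opposite in sign to the Nestin-Cre HOM value, and the difference between models was not tested. HET and HOM means in STR and SN were 96.4 ± 10.02 and 102 ± 14.8 cpm and 68.9 ± 17.1 and 64.5 ± 18.3 cpm in Nestin-Cre and 109 ± 7.00 and 108 ± 6.60 cpm and 80.8 ± 7.92 and 80.4 ± 6.36 cpm in AAV-Cre mice.

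Ngfr in AAV-Cre SN ran from 2.69 to 5.97 cpm (median 3.59) in WT and from 3.12 to 8.02 cpm (median 4.92) in HOM libraries. Of 8 HOM libraries 7 lay above the WT mean, with overlap, and the log2 fold change was 0.49 (95% interval 0.043 to 0.93, adjusted p 0.657). Nestin-Cre SN gave 0.61 for HOM (-0.012 to 1.23, adjusted p 0.892). Mural and meningeal markers in AAV-Cre SN summed to between 221 and 428 cpm in WT and between 217 and 599 cpm in HOM libraries. Oligodendrocyte markers in Nestin-Cre SN summed to between 17056 and 32786.5 cpm in WT and between 15254 and 23868 cpm in HOM libraries. The part of these markers in the SN values of Ngfr was not tested. In Nestin-Cre PFC the 4 HOM libraries held 0.374, 0.329, 0.438 and 1.80 cpm, against 0.651 to 1.55 cpm in WT. The first 3 lay below every WT library and M4580 above all of them. The log2 fold changes there were -0.59 for HET (adjusted p 0.629) and -0.53 for HOM (adjusted p 0.764), and the HOM value became -1.49 without M4580 (adjusted p 0.141, range over the alternatives 0.141 to 1.00), which was not called. In Nestin-Cre STR the HOM mean rests on M4627, which had 11.43 cpm of Ngfr and the most mural and meningeal markers of these libraries (315 cpm, against at most 272 cpm). The HOM log2 fold change there was 0.086 (adjusted p 0.9601) and turned to -0.65 without M4627, left out after its values were seen (adjusted p 1.00, range over the alternatives 0.957 to 1.00). HET and HOM means were 3.15 ± 1.18 and 3.86 ± 3.79 cpm in STR and 3.59 ± 0.908 and 4.88 ± 2.31 cpm in SN of Nestin-Cre mice, and 1.91 ± 0.239 and 1.496 ± 0.692 cpm, 9.14 ± 3.52 and 7.23 ± 2.74 cpm and 4.23 ± 1.07 and 5.44 ± 1.87 cpm in PFC, STR and SN of AAV-Cre mice.

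Ngfr is known from cholinergic neurons, and markers of striatal tissue had lower means in the HET and HOM groups of the same region, with none called. Striatal markers were negative in 9 of 9 genes for HET (median -0.70) and for HOM (median -0.60) in Nestin-Cre PFC, with 9 and 7 of them at an unadjusted p under 0.05 (9.72% and 10.1% of all genes there), and summed to 735 cpm in WT, 471 cpm in HET and 482 cpm in HOM mice. The index of 4 cholinergic neuron markers differed from WT by -0.57 in HET (exact permutation p 0.00366, adjusted 0.0440) and by -0.50 in HOM (exact permutation p 0.0141, adjusted 0.0848). This list was chosen for testing after values had been seen, and the adjustment covers only the 12 tests made, so these p values are a description. Their sum was 5.71, 2.92 and 3.20 cpm, with Slc5a7 the most abundant. In SN and in AAV-Cre PFC the cholinergic index gave exact permutation p values from 0.195 to 0.913, none with an adjusted p under 0.535. M4580 goes the other way, with the most Ngfr (1.80 cpm) but the lowest sum of cholinergic markers of the HOM libraries (2.02 cpm) and the lowest sum of striatal markers of all Nestin-Cre PFC libraries (335 cpm). The part of these markers in the Ngfr values was not tested.

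Sort1 in AAV-Cre PFC ran from 628 to 823 cpm (median 660) in WT, from 671 to 805 cpm (median 722) in HET and from 691 to 839 cpm (median 733) in HOM libraries. All 8 HOM libraries lay above the WT mean, and WT mouse M3578, at 823 cpm, lay within the HOM range. The log2 fold change was 0.14 (95% interval 0.026 to 0.24, adjusted p 0.281) for HOM and 0.094 (-0.018 to 0.21, adjusted p 0.501) for HET. Marker sums differ between these groups too, so that the Sort1 and Ntrk3 values may be those of tissue make-up, which was not tested. Cortical markers summed to 1930.3 cpm in WT, 2040.6 cpm in HET and 2129 cpm in HOM mice, mural and meningeal markers to 300, 255 and 256 cpm, and astrocyte markers to 5441, 4818 and 4970 cpm. M3578 had the highest cortical sum of the WT libraries, 2186 cpm. M3587 had the next highest, 2111 cpm, but at most 685 cpm of Sort1. HOM mouse M3611 had a cortical sum of 1828 cpm, below the WT mean, but at least 691 cpm of Sort1. Elsewhere the Sort1 difference ran from -0.15 to 0.13, with HET and HOM means of 759.8 ± 53.9 and 732 ± 36.4 cpm in PFC, 388 ± 82.8 and 434 ± 25.9 cpm in STR and 304 ± 36.7 and 259.7 ± 43.1 cpm in SN of Nestin-Cre mice and 528 ± 23.9 and 506 ± 18.9 cpm in STR and 371 ± 17.3 and 366 ± 35.4 cpm in SN of AAV-Cre mice.

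Cdnf and Manf, the ER proteins, had no unadjusted p under 0.05 in 12 comparisons each. Cdnf differences ran from -0.33 to 0.18, with HET and HOM means of 1.42 ± 0.338 and 1.76 ± 1.02 cpm in PFC, 1.95 ± 0.331 and 1.95 ± 0.412 cpm in STR and 1.75 ± 0.359 and 1.53 ± 0.3996 cpm in SN of Nestin-Cre mice. In AAV-Cre mice its means were 1.65 ± 0.432 and 1.63 ± 0.244 cpm, 1.87 ± 0.595 and 2.03 ± 0.615 cpm and 1.43 ± 0.406 and 1.46 ± 0.197 cpm. The lower mean of Cdnf in AAV-Cre STR, in 6 of 7 HET and 5 of 7 HOM libraries, came to -0.33 (95% interval -0.71 to 0.054) and -0.22 (-0.60 to 0.17). Manf differences ran from -0.19 to 0.098, with HET and HOM means of 42.9 ± 5.26 and 37.6 ± 2.55 cpm in PFC, 52.6 ± 10.6 and 44.9 ± 1.89 cpm in STR and 53.0 ± 12.6 and 52.0 ± 8.07 cpm in SN of Nestin-Cre mice. AAV-Cre mice had 38.0 ± 5.53 and 38.9 ± 4.62 cpm, 36.8 ± 3.61 and 38.3 ± 4.51 cpm and 40.8 ± 6.55 and 40.0 ± 3.89 cpm of Manf. The widest Manf difference, -0.19 in Nestin-Cre STR HOM (95% interval -0.41 to 0.036), had all 6 HOM libraries below the WT mean, with overlap.

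Among the lists described here no gene was called in any genotype comparison, and among the cell-type markers only Gjb1 of oligodendrocytes was (Nestin-Cre PFC HOM, -0.71, adjusted p 0.00677). The 10 oligodendrocyte markers were all negative in Nestin-Cre PFC, where the Ntrk3 and Ngfr differences are given, with medians of -0.41 for HET and -0.42 for HOM and 10 and 9 at an unadjusted p under 0.05 (9.72% and 10.1% of all genes there). They summed to 5315 ± 877 cpm in WT, 4027 ± 290 cpm in HET and 3907 ± 823 cpm in HOM mice. Counts at an unadjusted p under 0.05 reached 6 of 19 adaptors in AAV-Cre STR HOM (4.58% of all genes there), 4 of 25 ER genes in Nestin-Cre STR HET (17.3% of all genes) and in AAV-Cre PFC HOM (14.2% of all genes) and at most 1 protease in any comparison. Immediate-early genes were positive in 12 of 12 in Nestin-Cre PFC, with medians of 0.61 for HET and 0.80 for HOM and 7 and 8 at an unadjusted p under 0.05, against the same shares of all genes, where Bdnf differed by -0.011 and -0.21. Late activity-regulated genes had medians of -0.050 and -0.17 there.

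Whether the genotype effect differs between regions was tested on all libraries of a model. In edgeR 0 of the 8 genes were called in any of the 12 tests of such differences, with 0 to 2 of them per test at an unadjusted p under 0.05. In Nestin-Cre mice the share called among 15403 genes was 0% for STR against PFC, 0.013% for SN against PFC and 0.0649% for SN against STR in HET, and 0%, 0% and 0% in HOM mice. In AAV-Cre mice, among 15442 genes, it was 0%, 0.0194% and 0.00648% in HET and 0%, 0.188% and 0.00648% in HOM mice. Bdnf gave the widest differences, -1.74 for SN against STR in AAV-Cre HOM mice (adjusted p 0.411) and 1.53 for SN against STR in Nestin-Cre HET mice (adjusted p 0.338). These were not fitted without the STR libraries high in cortical markers, without which the STR difference behind the first was 1.01 in place of 1.48 and that behind the second 0.50 in place of -1.41. DESeq2 was not run on these differences, and with mouse number as a replicate block 0 of the 8 were called as well. Over all genes the block called 136 for HET and 692 for HOM in SN against PFC of AAV-Cre mice, where 3 and 29 were called without it, and 0 in the other 10 tests.

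Genes with a pattern like that of each member are given as a description, by Pearson r of log2 values over 18 group means, which share tissue, and over all libraries with group means removed, which share depth and dissection. Over group means the closest genes to Bdnf were Gng2 (0.990), Vsnl1 (0.989) and Arhgdig (0.988), and those to Ntf3 were Ggact (0.991), Bend6 (0.990) and Kcns3 (0.989). For the Trk receptors they were Mgat5 (0.975), Ank2 (0.974) and Agpat3 (0.974) with Ntrk2, and Zfp512b (0.986), Pisd-ps1 (0.985) and Morc2a (0.984) with Ntrk3. Ngfr was closest to Vwa7 (0.970), Dnaic2 (0.959) and Arpin (0.956), and had a median r of 0.495 with the 4 cholinergic markers and -0.83 with the 8 cortical markers. Sort1 was closest to Mpp2, Tecpr2 and Bcl7a (0.990 each), Cdnf to Adra2b (0.913), Krt10 (0.911) and Bora (0.909), and Manf to Snrpd1 (0.973), Timm17a (0.973) and Mnat1 (0.968).

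With group means removed, which leaves the variation between libraries of a group, Bdnf was closest to Bmp3 (0.818), Neurod6 (0.781) and Nr4a2 (0.779), and Ntrk2 to Tenm1 (0.772), Cdh2 (0.761) and Klf12 (0.746). Ntrk3 was closest to Srrm1 (0.801), Sidt2 (0.774) and Sdccag3 (0.767), and Sort1 to Lmtk2 (0.738), Fam168b (0.736) and Atp2b2 (0.734). The low genes had weaker likeness, Ntf3 to Tmem232 (0.520), Tspan6 (0.424) and Chrna6 (0.421), Ngfr to Adarb2 (0.517), Slc6a11 (0.499) and Kcnab3 (0.447), and Cdnf to Oas1c (0.430), Rdh9 (0.404) and Gsg1l (0.381). Manf was closest to Pdia6 (0.821), Hspa5 (0.821) and Pdia4 (0.790), which encode ER chaperones and disulfide isomerases.

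The likeness of Manf extends over the ER list. Of the 26 genes 21 had a positive r with Manf and the median was 0.449, against -0.011 over the 15674 other genes. Pdia3 (0.764) ranked 4 among all genes, Calr (0.708) ranked 6, Hsp90b1 (0.683) ranked 8, Sdf2l1 (0.658) ranked 10 and Xbp1 (0.621) ranked 19. Ern1 (-0.30) and Syvn1 (-0.21) had the lowest values. Within each model and region, over 18 to 22 libraries, r of Manf with Pdia6, Hspa5 and Pdia4 ran from 0.706 to 0.937, but these genes were picked by their r over the same libraries, so high values follow in part from the choice. Cdnf had a median r of -0.11 with the same 26 genes, 5 of them positive, against 0.0034 over all genes. The 2 paralogs thus differed in this description, on counts for Cdnf that reach no more than 75 per library.

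**Figure D4:**
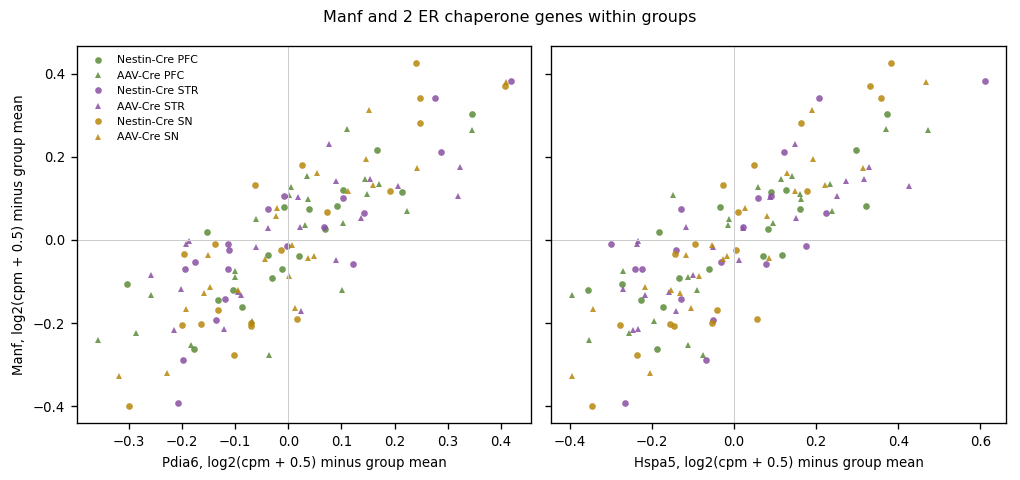
Each point is a library, with Manf on the x axis and Pdia6 or Hspa5 on the y axis, as log2(cpm + 0.5) minus the mean of the library's group. Both have an r of 0.821 with Manf.

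Promoters are shown because the ER genes move with Manf, and many ER chaperone promoters are known to hold the ER stress response element. Its letters, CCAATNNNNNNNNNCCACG, were searched on both strands in 300 bases, 250 before and 50 after each start, of the RefSeq promoters on GRCm38.p6. They occur in 39 of 32851 promoters (0.119%). Of the 26 ER genes 23 were in the table and 8 of them held the motif (Hspa5, Calr, Hsp90b1, Canx, Pdia6, Dnajc3, Creld2 and Syvn1), while Pdia3 and Pdia4 had no match. Of the 8 neurotrophin and MANF family genes 5 were in the table, with 12 promoters (7 of Bdnf, 2 of Ntf3, 1 each of Ntrk2, Ngfr and Cdnf), and 0 held it, and Manf, Ntrk3 and Sort1 were not in the table. The promoters of Pdia6 (chr12:17266339-17266638, plus strand) and Hspa5 (chr2:34771840-34772139, plus strand), the genes most like Manf, are set beside that of Cdnf (chr2:3512815-3513114, plus strand), with the motif's fixed letters in capitals:
Pdia6: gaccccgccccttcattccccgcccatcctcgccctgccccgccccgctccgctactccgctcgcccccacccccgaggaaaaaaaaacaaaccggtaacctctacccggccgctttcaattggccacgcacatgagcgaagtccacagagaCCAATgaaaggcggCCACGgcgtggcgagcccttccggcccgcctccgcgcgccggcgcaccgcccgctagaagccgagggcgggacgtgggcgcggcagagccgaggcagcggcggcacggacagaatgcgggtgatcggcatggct
Hspa5: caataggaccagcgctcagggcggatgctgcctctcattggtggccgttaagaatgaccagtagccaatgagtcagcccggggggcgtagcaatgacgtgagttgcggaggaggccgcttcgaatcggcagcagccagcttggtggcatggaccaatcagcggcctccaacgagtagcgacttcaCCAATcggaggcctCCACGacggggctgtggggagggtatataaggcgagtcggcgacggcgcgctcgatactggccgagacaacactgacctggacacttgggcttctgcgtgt
Cdnf: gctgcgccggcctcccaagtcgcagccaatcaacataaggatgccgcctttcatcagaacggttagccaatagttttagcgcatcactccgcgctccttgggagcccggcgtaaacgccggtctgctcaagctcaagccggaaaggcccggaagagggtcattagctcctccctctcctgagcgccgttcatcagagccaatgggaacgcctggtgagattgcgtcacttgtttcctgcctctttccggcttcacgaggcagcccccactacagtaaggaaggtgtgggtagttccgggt

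The matches of the other 6 genes are shown with 10 bases on each side, read along the strand of the gene. Those of Canx (chr11:50325790-50325828, minus strand), Dnajc3 (chr14:118937817-118937855, plus strand), Syvn1 (chr19:6046522-6046560, plus strand) and the first of Hsp90b1 (chr10:86705628-86705666, minus strand) lie on the strand of the gene. Those of Calr (chr8:84847065-84847103, minus strand), Creld2 (chr15:88819510-88819548, plus strand) and the second of Hsp90b1 (chr10:86705523-86705561, minus strand) lie on the opposite strand, so the capitals read in reverse complement. A match is a description of letters and not of a bound site, and Syvn1, with r of -0.21 to Manf, holds one while Pdia4 does not:
Canx: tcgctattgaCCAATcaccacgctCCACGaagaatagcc
Dnajc3: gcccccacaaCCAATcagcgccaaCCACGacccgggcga
Syvn1: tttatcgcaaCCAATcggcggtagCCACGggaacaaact
Hsp90b1 first: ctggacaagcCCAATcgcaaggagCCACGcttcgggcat
Calr: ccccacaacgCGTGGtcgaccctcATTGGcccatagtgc
Creld2: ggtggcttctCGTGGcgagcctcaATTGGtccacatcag
Hsp90b1 second: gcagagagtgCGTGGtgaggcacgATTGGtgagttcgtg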

How the data were processed

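The deposited count table holds integer counts of reads per gene, which the authors made with bcl2fastq 2.20.0.422, STAR 2.5.2b on mm10 and featureCounts 1.5.1, without normalization. Its Length column, as deposited, is the summed exon length of each gene and gave the per-kilobase values. The members and lists were chosen with earlier results of these data known.

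Genes that reached 1 cpm in 3 or more libraries of a fit were kept, scaled by TMM, and tested with edgeR 4.0.16 (quasi-likelihood F test, two-sided, trended dispersion) in R 4.3.3 with limma 3.58.1, 1 fit per region and model for genotypes, 1 per model for WT regions and 1 per model for the difference of genotype effects, with Benjamini-Hochberg adjustment over all genes. DESeq2 1.42.0 served as an alternative. Permutation tests, likeness and figures used Python 3.11.15, numpy 2.4.6, scipy 1.17.1 and matplotlib 3.10.9, and intervals are the log2 fold change ± 1.96 SE.

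Libraries with the same mouse number are correlated across regions after removal of group means (median r 0.179 to 0.278 against -0.0141 to -0.00229 for other mice), so the fit with mouse number as a block was run as an alternative. Genes named are the 8 members, Gdnf, list genes called between genotypes, the 2 genes per list with the largest called difference between regions, and the 3 genes most like each member over group means and over libraries. Ngfrap1 of the adaptor list was matched as Bex3. The relation of Bdnf to cortical markers, the marker lists given permutation tests, the promoters shown and 5 added alternatives were chosen after values were seen. Some results of 1 list are withheld and not reported here.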

Additional observations from a re-analysis of the deposited data

Results flagged for a closer look

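In each group the library farthest from the rest was compared with the limit of Dixon's ratio for the group's size, at a level that chance alone passes in about 1 in 20 groups, and 10 of 144 pairs of gene and group (6.94%) passed it. Bdnf was high in STR of AAV-Cre HOM mouse M3687 (3.91 cpm, nearest other 1.78) and of Nestin-Cre HOM mouse M4569 (16.5 cpm, nearest other 3.01). Ntf3 in M3687 was low in SN (2.24 cpm, nearest other 4.08) and high in STR (0.421 cpm, nearest other 0.171). Ntrk2 was high in AAV-Cre HET mouse M3577 in PFC (983 cpm, nearest other 890) and STR (932 cpm, nearest other 732).

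Ngfr was high in PFC of Nestin-Cre HOM mouse M4580 (1.80 cpm, nearest other 0.438) and in STR of HOM mouse M4627 (11.43 cpm, nearest other 3.60), which also had the most mural and meningeal markers of the Nestin-Cre STR libraries (315 cpm, against at most 272 cpm). Sort1 was high in PFC of AAV-Cre WT mouse M3578 (823 cpm, nearest other 685) and low in STR of AAV-Cre WT mouse M3576 (446 cpm, nearest other 497). M4580 and M4627 were left out in alternatives, and the values fitted with all libraries are given beside them.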

How the results depend on the processing

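Over the alternatives 153 counts of called genes among the 8 stayed within 1.5 times and 2 did not. Within that tolerance, the count between SN and PFC of Nestin-Cre WT mice went from 6 to 7 without the STR libraries of M4326 and M4609, and that between SN and STR from 5 to 6 without these and without M4575. For single genes, 400 values kept their result, 5 turned in sign and 5 became called. With the likelihood ratio test 1 of the 8 genes, Bdnf, was called for HET in Nestin-Cre STR, among 1242 of all 14494 genes, and 1, again Bdnf, for HOM in AAV-Cre STR, among 175 of all 14655. In AAV-Cre STR Bdnf had passed the filter through HET and HOM libraries alone. Bdnf for HET in Nestin-Cre STR reversed to 0.50 (adjusted p 0.608, range over the alternatives 5.95e-05 to 0.608) without M4326, M4609 and M4569. Ngfr for HOM in Nestin-Cre STR, 0.086, turned to -0.65 without M4627 (adjusted p 1.00, range over the alternatives 0.957 to 1.00). Ntrk2 between SN and PFC of AAV-Cre WT mice, 0.011, turned to -0.013 with no filter on low counts, -0.00040 with the size factors of DESeq2 and -0.00041 in DESeq2 itself. Bdnf between SN and PFC and Cdnf between SN and STR of Nestin-Cre mice became called in alternatives given with those genes. The cause of these changes was not tested.

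Without each Nestin-Cre PFC HOM library in turn, 0 of the 8 genes were called, against 1 to 122 of all genes for HOM and 0 to 54 for HET, and Ntrk3 for HOM ranged from 0.11 to 0.21. Ngfr for HOM was -1.49 without M4580 and from -0.34 to -0.27 without any other of the 4. With mouse number as a replicate block the calls on the 8 genes between WT regions were 6, 6 and 5 in the Nestin-Cre line and 6, 4 and 7 with AAV-Cre, and Bdnf between STR and PFC of Nestin-Cre mice was -3.25, so the block changed no call on them. The leaving-out of M4326 and M4609, of these with M4569, of M3687, of M4627 and of the SN library of M3587 was chosen after the values were seen. Limits are the 4 libraries of Nestin-Cre PFC HOM, low counts of Ntf3, Bdnf in STR, Ngfr and Cdnf, bulk tissue with varying dissection, males only, and RNA alone, with no protein measured.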
